A study of Mus musculus with 9 samples.

Results

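The 4 kinases that phosphorylate the translation factor eIF2alpha, the transcription factor Atf4 and 5 of its stress targets were followed through RNA-seq of 3 immortalized mouse striatal cell lines. The 10 genes (Eif2ak1, Eif2ak2, Eif2ak3, Eif2ak4, Atf4, Ddit3, Asns, Chac1, Trib3 and Ppp1r15a) were chosen by symbol from the 36410 genes of the count table, and all 10 were among the 13508 genes that passed the filter on low counts. Control cells (STHdhQ7/Q7) carried 7 repeats in exon 1 of both knock-in Htt alleles. HD-het cells (STHdhQ7/Q111) carried 7 repeats in one allele and 111 in the other, and HD-homo cells (STHdhQ111/Q111) carried 111 in both. Strain was given as C57/BL6 for all samples, no treatment was given, and each genotype was sequenced in 3 libraries. Each genotype was a single line derived from embryos, so genotype and line cannot be told apart. The labels do not say that the libraries of a line came from separate cultures, and the p-values then measure the spread between these libraries, which may be technical.

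Libraries held 29507665 to 41197931 counts. Between 15414 and 15951 genes had a count in a library, and the fewest counts of a member in any library were 227, for Trib3. The striatal label was checked against marker genes. Drd1, the D1 dopamine receptor of striatal projection neurons, had 0 counts in all 9 libraries, and most of the summed level of the 13 striatal neuron markers came from Foxp1, at 93.8 CPM in control, 114 CPM in HD-het and 168 CPM in HD-homo cells (CPM, counts scaled to a common library size). Of 8 general neuron markers, 3 reached 1 CPM in each line. In the same order, Map2 averaged 62.9, 60.4 and 59.7 CPM, Tubb3 42.4, 50.8 and 37.8 CPM, and Stmn2 53.7, 2.71 and 2.75 CPM. The 8 fibroblast or mesenchymal markers, led by Col1a1, summed to 4625 to 5859 CPM in control libraries, 12796 to 14741 CPM in HD-het libraries and 6554 to 7118 CPM in HD-homo libraries. The markers did not move together: Col1a2 averaged 73.4 CPM in control, 3.15 CPM in HD-het and 1494 CPM in HD-homo cells, Acta2 averaged 2271, 5290 and 91.8 CPM, and Pdgfra averaged 5.21, 4.38 and 307 CPM in the same order. The part of this difference in the results below was not tested. Htt itself averaged 100 CPM in control, 62.3 CPM in HD-het and 20.2 CPM in HD-homo cells, and gene counts do not separate its alleles.

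Phosphorylation of eIF2alpha lowers the initiation of most protein synthesis, while the Atf4 mRNA, which has upstream open reading frames, is translated more. Each kinase is known for its own trigger. Eif2ak1 encodes HRI, which senses heme shortage and mitochondrial stress, and Eif2ak2 encodes PKR, which binds double-stranded RNA and is itself induced by interferon. Eif2ak3 encodes PERK, which responds to unfolded protein in the endoplasmic reticulum, and Eif2ak4 encodes GCN2, which responds to uncharged tRNA when amino acids run short. ATF4 then drives genes of amino acid supply and stress. Because ATF4 and eIF2alpha phosphorylation are set largely after transcription, mRNA counts give neither kinase activity nor ATF4 protein.

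ATF4 binds with C/EBP partners at a composite element, so the 250 bases before the RefSeq start of each member (build GRCm38.p6) were searched on both strands for its core, TGATGNAA, where N is any base. All 10 members matched a promoter in the RefSeq table, Eif2ak4 with 2, which gave 11 promoters. The core was present in 3.45% of the 32851 promoters of that table and in those of Asns and Chac1 among the members. The match in Asns, which lies on the minus strand, began 23 bases before the start, and the match in Chac1 began 193 bases before the start and read on the opposite strand of the gene. The windows are shown because these are the members in which the core was found within the 250 bases before the start. Each is read 5′ to 3′ on the strand of its gene with the match in capitals.
Asns (chr6:7693210-7693248, minus strand): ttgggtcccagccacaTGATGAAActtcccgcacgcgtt
Chac1 (chr2:119351033-119351072, plus strand): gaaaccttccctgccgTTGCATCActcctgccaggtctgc

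A search for the interferon-stimulated response element, found in 2.98% of the same promoters, gave a match in Ppp1r15a only among the members and none in Eif2ak2. The Ppp1r15a window is shown with the match, which began 220 bases before the start, in capitals; the 2 searches do not overlap in these windows. A match is a description of letters, and its absence says only that they are not in this window.
Ppp1r15a (chr7:45526463-45526504, minus strand): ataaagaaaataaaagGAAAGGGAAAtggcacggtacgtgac

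In HD-het cells the mRNAs of all 5 stress targets were higher than in control cells, from 1.35-fold for Ppp1r15a to 6.98-fold for Trib3, whereas Atf4 fell by 13.4% in mean level. In HD-homo cells the same targets lay closer to control, and Eif2ak2, the PKR gene, was the kinase that differed most, at 1.73-fold. Levels are given as CPM scaled by TMM factors, and differences are log2 fold changes from edgeR's quasi-likelihood test over all 9 libraries, with Benjamini-Hochberg adjusted p over 13508 genes; a gene was called where this adjusted p was under 0.05. In bulk samples, fewer cells of a type and less RNA per cell cannot be told apart. Against control, 7 members were called higher and 2 lower in HD-het cells, while 33.8% of all tested genes were called higher, 31.4% lower and 65.1% in either direction. In HD-homo cells 5 members were called higher and 0 lower than control by edgeR, against 29.6% and 28.9% of all genes and 58.6% in either direction. The median log2 fold change of the 10 members was 0.35 in HD-het and 0.49 in HD-homo cells, beside 0.0251 and 0.00772 over all tested genes. Both comparisons share the control libraries. All 3 lines also share a single estimate of each gene's spread, so a wide spread in any line enters the tests of the others.

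**Figure D1:**
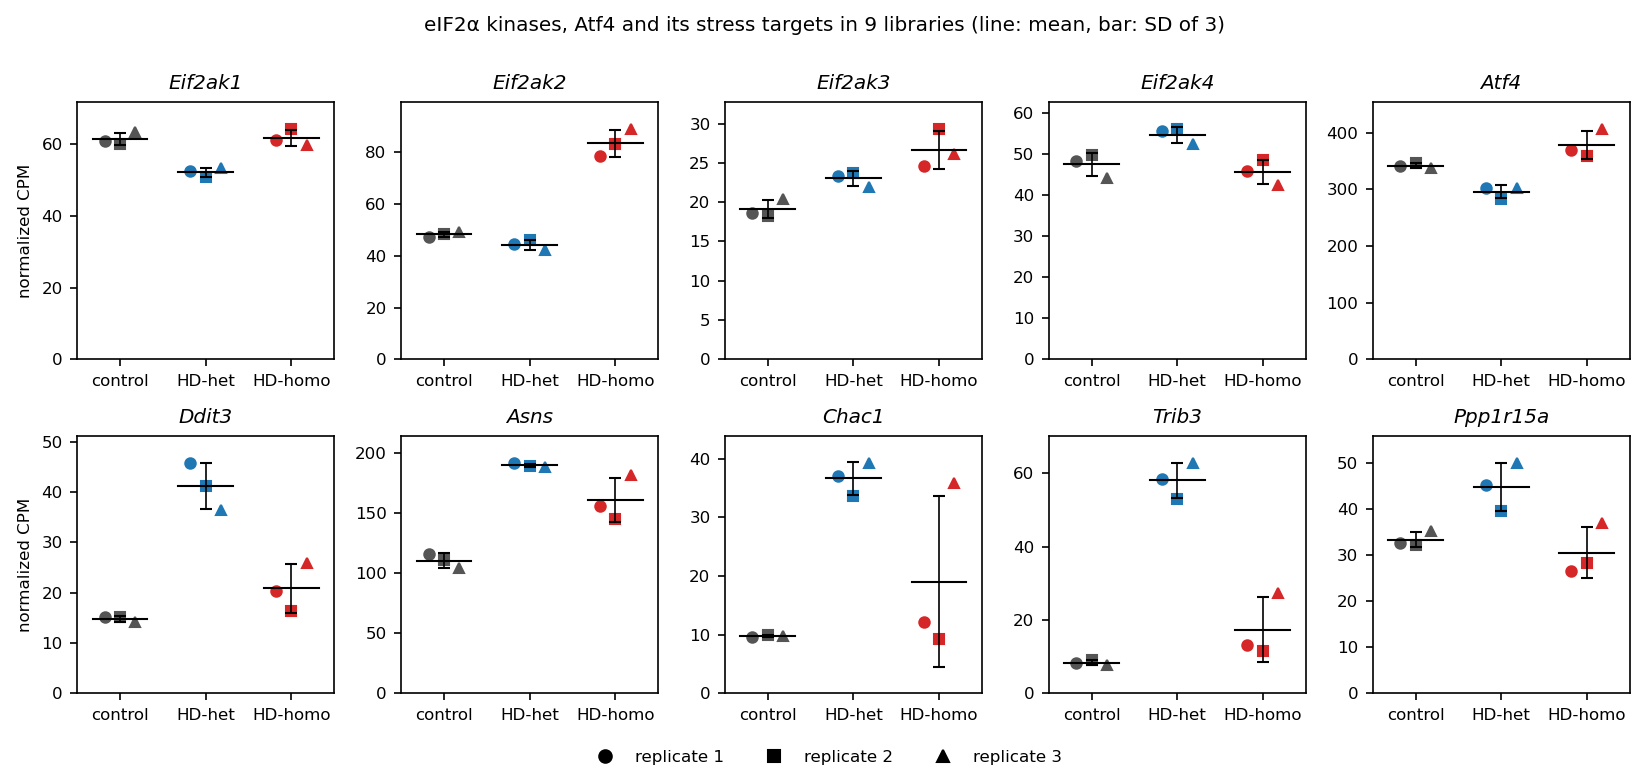
Normalized CPM of each member (vertical axes, from 0) in the 9 libraries, grouped by line; marker shape gives the replicate, horizontal lines the mean and bars the SD of 3 libraries. Trib3 stands at 53 to 62.7 CPM in HD-het cells against 7.67 to 9.01 CPM in control cells, and HD-homo replicate 3 stands above the other HD-homo libraries for Chac1 and Trib3.

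One library needs to be kept in view for HD-homo cells. HD-homo replicate 3 was the highest library of its line for 7 of the 10 members, while it was the highest for 34.1% of all tested genes. It was also highest for 12 of 13 aminoacyl-tRNA synthetase and tRNA export genes, 8 of 9 amino acid transporters, 9 of 13 other ATF4 and CHOP targets and 14 of 18 interferon-stimulated genes. Among amino acid synthesis genes it was highest for 8 of 12. In the remaining lists the excess was smaller or absent. It was highest for 7 of 12 ATF6 and XBP1 targets and 4 of 8 bZIP partners and regulators of ATF4. For eIF2, eIF2B and phosphatase genes it was 5 of 13, and for kinase regulators 3 of 11. Values of members that it changes most, and HD-homo counts of the lists below that it changes, are given with and without it. Some HD-het counts also changed without it, as given below.

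Eif2ak1 had the lowest level in HD-het cells. Its level was 60.8, 60.2 and 63.4 CPM in the control libraries, 52.4, 50.8 and 53.3 CPM in the HD-het libraries and 61.2, 64.2 and 59.9 CPM in the HD-homo libraries. HD-het libraries lay below all others, and control and HD-homo libraries overlapped. Eif2ak1 was called lower in HD-het than control cells (log2 fold change -0.24, SE 0.0547, edgeR adjusted p = 0.00266), and its HD-homo difference from control had a 95% interval of -0.11 to 0.13 on the log2 scale. In the annotation, 12.1% of the 50-base words of its exons are shared with Aimp2 or Ankrd61, so part of its reads could be divided between genes. These words were matched on either strand, and the strands were not separated although the libraries were directional.

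Eif2ak2 separated HD-homo cells from both other lines. It was measured at 47.4, 48.4 and 49.1 CPM in control, 44.4, 46.0 and 42.1 CPM in HD-het and 78.6, 83.3 and 89.0 CPM in HD-homo libraries. Each HD-homo library exceeded every other library, and each HD-het library lay below every control library. The log2 fold change was 0.79 in HD-homo against control (SE 0.0624, edgeR adjusted p = 8.78e-07) and 0.92 in HD-homo against HD-het cells (SE 0.0625, adjusted p = 1.68e-07). The HD-het difference from control was -0.13 (SE 0.0628) and did not pass, with an edgeR adjusted p of 0.0932. Annotated gene models Gm26637, Gm48800 and Gm37426 share 3.45% of its 50-base words.

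Eif2ak3, the PERK gene, was lowest in control cells. Its libraries gave 18.6, 18.3 and 20.4 CPM in control, 23.4, 23.7 and 22.0 CPM in HD-het and 24.6, 29.3 and 26.1 CPM in HD-homo cells. The 3 lines did not overlap, in the order control, HD-het and HD-homo. It was called higher in HD-homo than control cells (log2 fold change 0.48, SE 0.0821, edgeR adjusted p = 0.000424), with 7.64% of its 50-base words shared with Gm43292. The smaller HD-het difference of 0.27 (adjusted p = 0.0138) did not pass without control replicate 1 (0.25, edgeR adjusted p = 0.0527) or control replicate 2 (0.24, adjusted p = 0.0578). Between the HD lines the difference of 0.21 (adjusted p = 0.0355) was lost on leaving out any 1 of 5 libraries (control replicate 1, HD-het replicates 1, 2 and 3, and HD-homo replicate 2), with an edgeR adjusted p up to 0.131 and a value of 0.14 without HD-homo replicate 2. It was also lost in a fit of the HD lines alone (adjusted p = 0.066), after thinning to the smallest library (edgeR adjusted p = 0.0565) and without replicate 3 of all lines (adjusted p = 0.0929).

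Eif2ak4, the GCN2 gene, was highest in HD-het cells. The control libraries held 48.3, 49.9 and 44.3 CPM, the HD-het libraries 55.7, 56.1 and 52.5 CPM and the HD-homo libraries 45.8, 48.6 and 42.6 CPM. HD-het libraries lay above all others, while control and HD-homo libraries overlapped (log2 fold change -0.06, 95% interval -0.21 to 0.10). The HD-het increase over control was 0.20 (SE 0.0698, edgeR adjusted p = 0.0234) and did not pass without control replicate 1, control replicate 3, HD-het replicate 1 or HD-het replicate 2, with adjusted p between 0.0519 and 0.098. HD-homo cells were called lower than HD-het cells, by a log2 fold change of -0.26 (adjusted p = 0.00561).

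Per kilobase of main transcript, the order of the kinases changed between lines. In control cells the mean levels were 14.2 CPM per kilobase for Eif2ak1, 11.2 for Eif2ak2, 9.11 for Eif2ak4 and 4.24 for Eif2ak3. In HD-homo cells Eif2ak2 came first, at 19.4 CPM per kilobase against 14.3 for Eif2ak1. Eif2ak2 made up 28.9% ± 0.285 (SD, n = 3) of the length-scaled counts of the 4 kinases in control, 27.0% ± 0.709 in HD-het and 40.1% ± 2.16 in HD-homo cells. The share of Eif2ak1 was 36.7%, 31.8% and 29.6% in the same order, and that of Eif2ak4 was 23.5%, 27.7% and 18.1%. The HD-homo and control shares of Eif2ak2 differed by 11.2 percentage points, with a two-sided exact permutation p of 0.1, the smallest that 3 against 3 libraries allow. Every kinase in every pair of lines gave this same p, so the test does not set Eif2ak2 apart. The 4 shares are parts of a whole and do not move independently. Eif2ak1 itself averaged 61.8 CPM in HD-homo and 61.5 CPM in control cells. These shares compare mRNA levels and not the amounts of kinase protein.

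**Figure D2:**
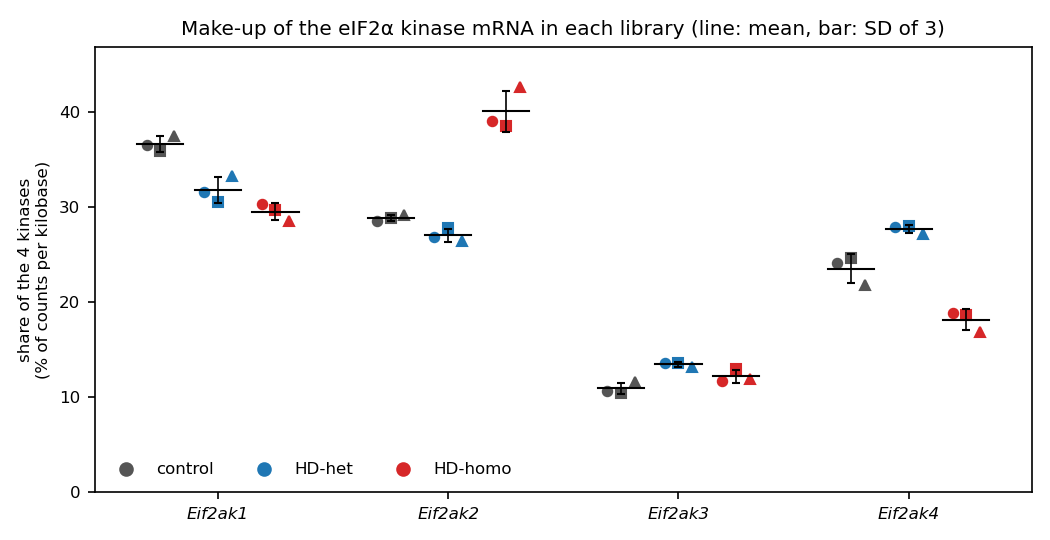
Share of each eIF2alpha kinase in the counts per kilobase of the 4 kinases (vertical axis, percent, from 0) in each library; marker shape gives the replicate as circle, square and triangle for 1, 2 and 3, horizontal lines the mean and bars the SD of 3 libraries. Eif2ak2 takes 40.1% in HD-homo cells against 28.9% in control cells.

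Atf4 was the most abundant member per kilobase in every line, at 198 CPM per kilobase in control, 171 in HD-het and 219 in HD-homo cells. Its libraries gave 341, 346 and 337 CPM in control, 303, 282 and 302 CPM in HD-het and 370, 359 and 406 CPM in HD-homo cells. The 3 lines did not overlap, with HD-het lowest and HD-homo highest. Atf4 was called lower in HD-het than control cells (log2 fold change -0.21, SE 0.0595, edgeR adjusted p = 0.00953) and higher in HD-homo than HD-het cells (0.36, adjusted p = 0.000231). The HD-homo difference from control of 0.15 (SE 0.0594) did not pass at an edgeR adjusted p of 0.0506, and passed without HD-homo replicate 2 (0.19, adjusted p = 0.0235), with scaling to library totals (adjusted p = 0.0234) and with at least 10 counts required in every library (edgeR adjusted p = 0.0433). Over 19 alternatives the value ranged from 0.09 to 0.19. It passed in 4 of them, and elsewhere the adjusted p (edgeR or DESeq2) reached 0.257.

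Ddit3 encodes CHOP, a transcription factor linked to cell death under prolonged stress. It was measured at 15.1, 15.2 and 14.2 CPM in control, 45.7, 41.3 and 36.5 CPM in HD-het and 20.4, 16.3 and 25.9 CPM in HD-homo libraries. The 3 lines did not overlap, and HD-het cells were highest. The increase over control was 2.78-fold in HD-het cells (log2 fold change 1.47, SE 0.146, edgeR adjusted p = 5.85e-06) and 1.41-fold in HD-homo cells (0.49, SE 0.147, adjusted p = 0.0143). Without HD-homo replicate 3 the latter was 0.30 on the log2 scale (edgeR adjusted p = 0.0469). Ddit3 shares 2.26% of its 50-base words with the neighbouring gene Mars.

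Trib3 encodes a pseudokinase that is induced by ATF4 and CHOP and feeds back on them. Its control libraries held 8.27, 9.01 and 7.67 CPM, its HD-het libraries 58.5, 53.0 and 62.7 CPM and its HD-homo libraries 13.2, 11.5 and 27.5 CPM. No line overlapped another, and Trib3 had the widest range of line means of the 10 members, 2.79 on the log2 scale. It was 6.98-fold higher in HD-het than control cells (log2 fold change 2.80, SE 0.271, edgeR adjusted p = 4.77e-06). For HD-homo against control the log2 value was 1.06 (SE 0.271, adjusted p = 0.00597) and 0.56 without HD-homo replicate 3 (edgeR adjusted p = 0.00105).

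Chac1 encodes a gamma-glutamylcyclotransferase that breaks down glutathione. Control libraries gave 9.55, 9.90 and 9.80 CPM, HD-het libraries 37.1, 33.6 and 39.2 CPM and HD-homo libraries 12.1, 9.28 and 35.8 CPM. HD-homo replicate 3 lay within the HD-het range and the other HD-homo libraries near control, so the HD-homo libraries overlapped both other lines. The HD-het increase was 3.76-fold (log2 fold change 1.91, SE 0.393, edgeR adjusted p = 0.00126). That SE draws on a spread shared by all lines, and the SD was 0.182 CPM in control, 2.81 CPM in HD-het and 14.6 CPM in HD-homo libraries. In a fit of the HD-het and control lines alone the value was also 1.91 (edgeR adjusted p = 1.9e-08). Against control, the HD-homo value was 0.96 (SE 0.395) with an edgeR adjusted p of 0.0562, and it passed without HD-homo replicate 1 (1.20, adjusted p = 0.0286) or replicate 2 (1.3, adjusted p = 0.00545). Without replicate 3 it was 0.12 (adjusted p = 0.399). Set against HD-het cells, the HD-homo value was -0.95 (SE 0.372, edgeR adjusted p = 0.0387). That call was lost on leaving out any 1 of the other 8 libraries than HD-homo replicate 3, with adjusted p from 0.0506 to 0.131, and was -1.79 without HD-homo replicate 3 (edgeR adjusted p = 1.57e-07).

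Asns encodes asparagine synthetase and was the second most abundant member per kilobase in every line. Its level was 116, 111 and 104 CPM in control, 191, 189 and 188 CPM in HD-het and 156, 145 and 181 CPM in HD-homo libraries. The lines did not overlap, with control lowest and HD-het highest. Asns was called higher than control in HD-het (1.71-fold, log2 fold change 0.77, SE 0.0784, edgeR adjusted p = 6.77e-06) and in HD-homo cells (1.45-fold, 0.54, SE 0.0782, adjusted p = 0.000127). The HD-homo level was below the HD-het level by a log2 fold change of -0.24 (adjusted p = 0.0176), which did not pass without HD-homo replicate 1 (-0.21, edgeR adjusted p = 0.0556) or replicate 2 (-0.16, adjusted p = 0.0635).

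Ppp1r15a encodes GADD34, the stress-induced subunit that brings protein phosphatase 1 to eIF2alpha and so reverses the kinases. Control libraries held 32.6, 32.2 and 35.2 CPM, HD-het libraries 45.2, 39.5 and 49.9 CPM and HD-homo libraries 26.5, 28.2 and 37.0 CPM. HD-het libraries were above all others, and control and HD-homo libraries overlapped. The HD-het increase was 1.35-fold (log2 fold change 0.43, SE 0.122, edgeR adjusted p = 0.00911). The HD-homo value against control was -0.12 (SE 0.123, adjusted p = 0.409), and without HD-homo replicate 3 it was -0.28 and passed (edgeR adjusted p = 0.0303).

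**Figure D3:**
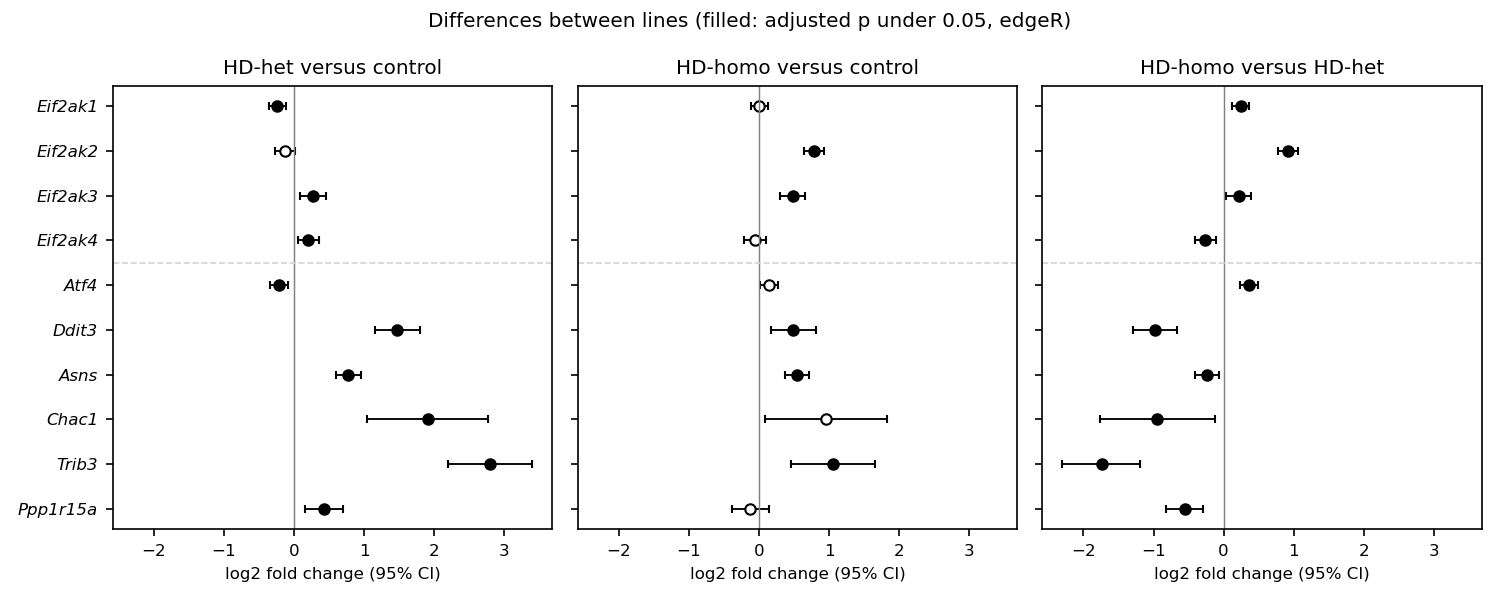
Log2 fold change of each member with its 95% interval (horizontal axis) in the 3 comparisons between lines, the kinases above the dashed line; filled points had an edgeR adjusted p under 0.05. Trib3 reaches 2.80 in HD-het cells, Eif2ak2 reaches 0.79 in HD-homo cells, and the targets are negative in HD-homo against HD-het cells.

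Compared directly, the HD lines differed in opposite directions for Atf4 and its targets. All 10 members were called between HD-homo and HD-het cells, 4 higher and 6 lower in HD-homo, where 71.6% of all tested genes were called, 36.0% higher and 35.6% lower. Eif2ak1, Eif2ak2, Eif2ak3 and Atf4 were higher in HD-homo cells, and Eif2ak4 and the 5 targets were lower. Trib3 had the largest difference (log2 fold change -1.74, SE 0.253, edgeR adjusted p = 7.82e-05). Ddit3 differed by -0.98 (SE 0.143, edgeR adjusted p = 7.72e-05), Chac1 by -0.95 as above, and Ppp1r15a by -0.55 (adjusted p = 0.00168). Without HD-homo replicate 3 the values were -2.24 for Trib3, -1.79 for Chac1 and -1.17 for Ddit3 (edgeR adjusted p = 1.21e-08, 1.57e-07 and 4.39e-06). The libraries of the lines did not overlap for 10 members in HD-het against control, 6 in HD-homo against control and 9 in HD-homo against HD-het, whereas 74.0%, 65.3% and 72.8% of all tested genes did not overlap in the same comparisons.

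The other genes of the pathway were read from 9 lists, whose counts are given over the genes tested, beside the shares of all genes above. Among 8 bZIP partners and regulators of ATF4, 6 were called higher and 0 lower in HD-het cells, with a median log2 fold change of 0.58. Atf5, a related stress factor, averaged 37.1 CPM in control and 121 CPM in HD-het cells (log2 fold change 1.70, SE 0.114, edgeR adjusted p = 3.13e-07). In HD-homo cells 2 of the 8 were called higher and 1 lower, or 2 lower without HD-homo replicate 3. Atf3, an early stress factor, had the largest increase there (1.49, SE 0.242, edgeR adjusted p = 0.000295), and Nupr1, a stress-induced nuclear protein, fell by 1.13 on the log2 scale.

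Aminoacyl-tRNA synthetases, which charge tRNA and are known ATF4 targets, were listed with the tRNA exporter Xpot. Of the 13 genes, 9 were called higher and 3 lower in HD-het cells, led by Nars at 287 CPM in control and 500 CPM in HD-het cells, while Mars fell by 0.38 on the log2 scale. The HD-homo line had 3 called higher and 1 lower, the largest increase being that of Aars (0.43) and the decrease that of Xpot (-0.15). Medians of the list were 0.42 and 0.04.

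Of 12 ATF4 targets in amino acid synthesis and one-carbon metabolism, 6 were called higher and 4 lower in HD-het cells, and 4 higher and 2 lower in HD-homo cells. Without HD-homo replicate 3 the HD-homo count was 3 higher and 3 lower, and the median was -0.01 in place of 0.03. Cbs passed the filter on low counts through other lines than control; without it 3 of 11 were higher and 2 lower in HD-homo cells. Pycr1, which makes proline, was the largest increase in both, from a mean of 7.89 CPM in control to 19.6 CPM in HD-het and 19.0 CPM in HD-homo cells (edgeR adjusted p = 6.22e-07 and 6.57e-07). Got1, a cytosolic aminotransferase, fell by 1.1 on the log2 scale in HD-het cells, and Cth, which makes cysteine from cystathionine, fell by 0.45 in HD-homo cells. Of 9 amino acid transporters, 4 were called higher and 2 lower in HD-het cells, and 2 higher and 4 lower in HD-homo cells. Without HD-homo replicate 3 the HD-homo count was 2 higher and 5 lower, and the median was -0.22 in place of -0.12. Slc7a11, the cystine importer, was 2.82-fold higher in HD-het cells (log2 fold change 1.49, SE 0.136, edgeR adjusted p = 3.1e-06), and Slc1a4 had the largest HD-homo increase (0.73). The glutamine transporter Slc1a5 fell in both, from 80.3 CPM in control to 23.3 CPM in HD-het and 29.8 CPM in HD-homo cells.

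Among 13 other targets of ATF4 and CHOP, 7 were called higher and 3 lower in HD-het cells, and 5 higher and 7 lower in HD-homo cells, with medians of 0.44 and -0.34. Without HD-homo replicate 3 the HD-homo count was 4 higher and 8 lower, and the HD-het count was 8 higher and 3 lower. Fgf21 and Gdf15 were below the cutoff of the low-count filter in control libraries and passed it through other lines. Without them 6 of 11 were higher and 3 lower in HD-het cells, and 3 higher and 7 lower in HD-homo cells. Vldlr, a lipoprotein receptor, had the largest HD-het increase among those at 1 CPM or more (log2 fold change 1.21, adjusted p = 0.000237), and Ddit4, an mTORC1 inhibitor, the largest decrease (-0.89). Gdf15, a secreted stress hormone, averaged 0.139 CPM in control and 4.59 CPM in HD-homo cells, with 82, 168 and 244 counts in the HD-homo libraries. Stc2, a secreted glycoprotein, fell from 6.98 CPM in control to 1.82 CPM in HD-homo cells.

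Genes of the core machinery moved in both directions. Of 13 genes for eIF2, its exchange factor eIF2B and the eIF2alpha phosphatase, 8 were called lower and 2 higher in HD-het cells, with a median of -0.40. In HD-homo cells 6 were lower and 3 higher, with a median of -0.15. Ppp1cb, a catalytic subunit of protein phosphatase 1, rose by 0.28 and Eif2s3y fell by 0.82 on the log2 scale in HD-het cells. Eif2b3 rose by 0.45 and Eif2b2 fell by 0.69 in the HD-homo line. Among 11 regulators of the kinases, 4 were called higher and 3 lower in HD-het cells, and 2 higher and 2 lower in HD-homo cells. Dele1, which relays mitochondrial stress to HRI, rose by 0.51 in HD-het cells, and Tarbp2, which inhibits PKR, fell by 0.98. Prkra, an activator of PKR, averaged 15.1 CPM in control and was called higher in both HD lines, at 20.9 CPM in HD-het and 20.4 CPM in HD-homo cells (log2 fold changes 0.47 and 0.44). Impact, which inhibits GCN2, averaged 39.4 CPM in HD-homo cells against 114 CPM in control (log2 fold change -1.53, SE 0.107, edgeR adjusted p = 3.17e-07).

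Targets of ATF6 and XBP1, the other branches of the unfolded protein response, gave 8 higher and 1 lower of 12 in HD-het cells, and 3 higher and 2 lower in HD-homo cells (3 and 3 without HD-homo replicate 3). Xbp1 rose by 0.67 and Creld2 fell by 0.54 on the log2 scale in HD-het cells. The chaperone gene Hspa5 rose by 0.42 and Dnajb9 fell by 0.77 in HD-homo cells. Interferon-stimulated genes were listed because Eif2ak2 is a gene of this kind. Of the 18 tested, 12 were below the cutoff of the low-count filter in a control library and passed it through other lines, which favoured a call of higher, so they are not counted. Of the other 6, 3 were called higher and 0 lower in HD-het cells by edgeR, and 4 higher and 1 lower in HD-homo cells. Over all 18, 0 were called lower in HD-het cells, and 1 without HD-homo replicate 3. Ifi44 and Oasl1 were among the 12 not counted, and their levels are given as a description only. Ifi44 averaged 0.0518 CPM in control and 1.80 CPM in HD-het cells. Oasl1 had 0 counts in all control and HD-het libraries and averaged 7.79 CPM in HD-homo cells. Of the 6 counted, Ifit2 was the gene called lower in HD-homo cells (20.5 against 28.4 CPM, edgeR adjusted p = 0.0475), although its libraries overlapped. Ifit2 was not called without HD-homo replicate 3 or with scaling to library totals.

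**Figure D4:**
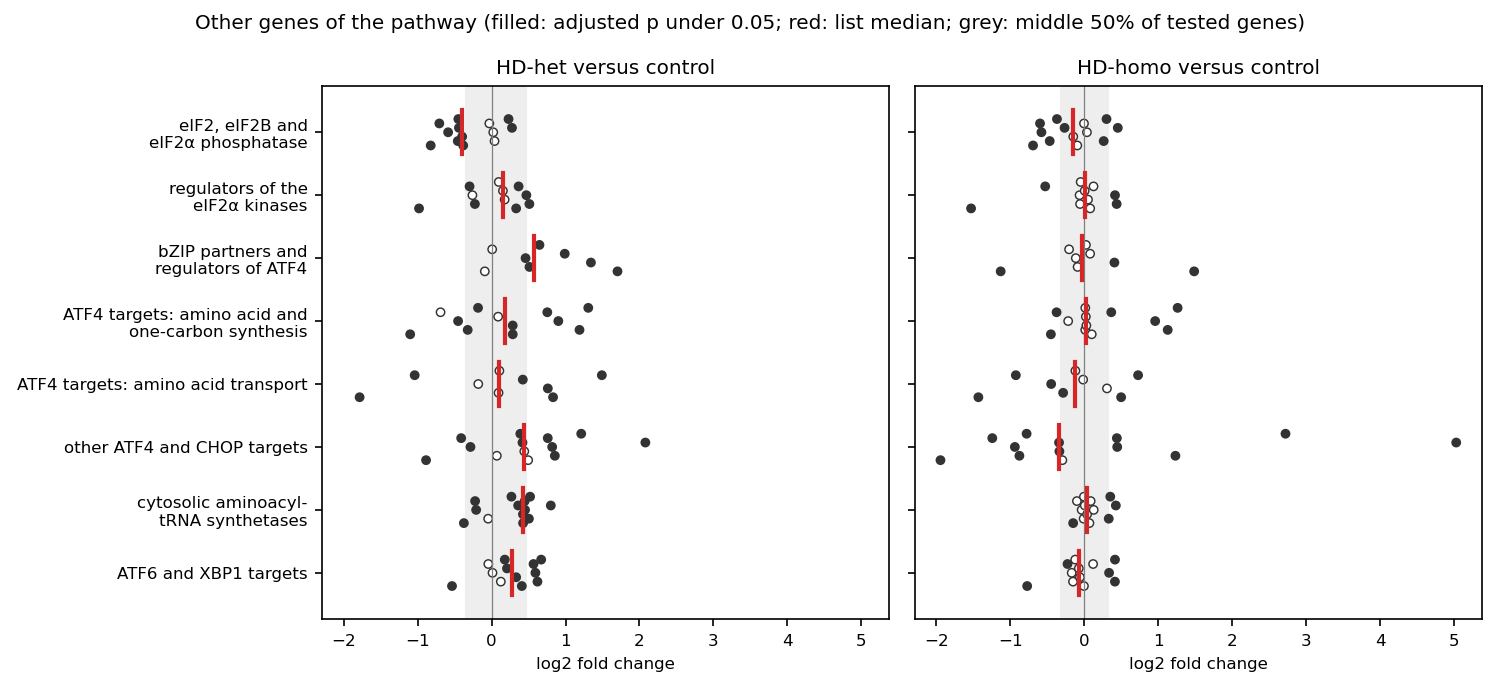
Log2 fold change against control (horizontal axis) of the genes of 8 pathway lists in HD-het and HD-homo cells; filled points had an edgeR adjusted p under 0.05, red bars are list medians and the grey band holds the middle 50% of all tested genes. The bZIP list has a median of 0.58 in HD-het and -0.03 in HD-homo cells, and the synthetase list 0.42 and 0.04.

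The genes whose pattern over the 9 libraries was most like that of a member were sought among 9265 genes averaging at least 10 CPM, by the root mean square difference of centred log2 CPM. For Eif2ak2, the kinase with the widest range of line means, they were Sntb2 (0.0666), Samd1 (0.0788) and Skap2 (0.0815). Sntb2 averaged 48.0 CPM in control, 43.6 CPM in HD-het and 88.6 CPM in HD-homo cells. For Trib3 they were 2510009E07Rik (0.29), Fam171b (0.372) and Whrn (0.373), and 2510009E07Rik averaged 4.22, 25.1 and 7.74 CPM in the same order.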

How the data were processed

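Total RNA of the 3 lines (3 libraries each) was poly(A) selected and made into directional libraries. The authors deposited counts per gene as whole numbers; the submitters' processing notes name cutadapt, Bowtie 1.1.2, RSEM 1.3.0 and DESeq2, and the build GRCm38.p5, with no role or order, and whether RSEM's estimates were rounded is not given in the sources used here. Libraries held 29507665 to 41197931 counts, and 3 counts correspond to 0.071 to 0.101 CPM. Counts were filtered with filterByExpr (minimum count 10), scaled by TMM and tested with glmQLFit and glmQLFTest of edgeR 4.0.16 in R 4.3.3, with 1 mean per line over 9 libraries and Benjamini-Hochberg adjustment over 13508 genes. Standard errors are the log2 fold change over the root of F. DESeq2 1.42.0 was an alternative. Transcript lengths and shared words, matched on either strand, came from GENCODE M21 (GRCm38) and promoters from RefSeq. In the table, 26 symbols had been turned into dates and 2 were repeated.

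Members and lists were chosen with earlier results of these data known. Beside the 10 members, each list was represented by the called genes with the largest increase and decrease against control in each HD line, provided the higher mean reached 1 CPM, and the kinase and the other member with the widest range of line means by their 3 most similar genes. Alternatives were other scalings and filters, the DESeq2 Wald test, fits of 2 lines only, a replicate block, thinning, stricter thresholds and leaving out each library. Replicate 3 of all lines was left out, and exon union lengths were used, as alternatives chosen after seeing the data.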

Additional observations from a re-analysis of the deposited data

Results flagged for a closer look

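Eif2ak2 and Atf4 lay on opposite sides of control in the HD lines: every HD-het library was below, and every HD-homo library above, all control libraries. HD-homo exceeded HD-het by 0.92 on the log2 scale for Eif2ak2 (SE 0.0625) and by 0.36 for Atf4 (SE 0.0595), which is a description here, since the pattern of the libraries picked these genes. Of the 4 differences from control, only that of Eif2ak2 in HD-homo cells and that of Atf4 in HD-het cells were called.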

How the results depend on the processing

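Among the log2 fold changes of members under alternatives, 530 kept their direction and their side of the threshold, 27 were no longer called, 9 were newly called and 4 turned sign. Where a minimum log2 fold change of 1 was required, 3 members were called in HD-het against control, 1 in HD-homo against control and 1 in HD-homo against HD-het cells, by construction fewer. Exon union lengths put the Eif2ak2 share at 31.7% in control, 29.8% in HD-het and 43.3% in HD-homo cells. The sign of Eif2ak1 in HD-homo against control, never called, turned: it was 0 with all libraries thinned to the smallest, and over the fits without 1 library it ranged from -0.02 to 0.03 (0.05 without replicate 3 of all lines). Chac1 in HD-homo against HD-het was not called by the DESeq2 Wald test (-0.94, adjusted p = 0.0978) or in a fit of the HD lines alone (edgeR adjusted p = 0.0692), and Ddit3 in HD-homo against control was not called without replicate 3 of all lines (0.27, edgeR adjusted p = 0.0738); the cause was not tested. Without 1 library, 7 to 9 members were called in HD-het against control, 5 to 7 in HD-homo against control and 7 to 10 in HD-homo against HD-het. Deviations of same-numbered libraries had small correlations, from -0.00532 to 0.145. Libraries nevertheless correlated best with their own number in 3 of 3, 3 of 3 and 2 of 3 cases. The main fit did not pair samples by number, and whether the numbers mark libraries handled together was not tested. With a replicate block 9, 6 and 10 members were called, Atf4 in HD-homo against control being added (0.15, edgeR adjusted p = 0.0368).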
